A study of Mus musculus with 14 samples.

Results

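The genes described here are a fixed list of 10 genes of microglia and related macrophages, Aif1, Cx3cr1, Csf1r, P2ry12, C1qa, C1qb, C1qc, Tyrobp, Trem2 and Mrc1, followed through RNA-seq libraries of embryonic mouse hippocampus. A gene was taken from the deposited gene table where the deposited map of transcripts gave it a name, and where a name occurred more than once the row with the highest mean was kept. In this way 9 of the 10 genes were found among 20223 named genes and 59796 assembled loci, and Aif1 was not analysed here. The libraries came from 4 groups of embryos dissected between E16 and E18, called E17 in the study. The 189N3 mouse (n = 3) carries an extra copy of Dyrk1a, a protein kinase gene of the Down syndrome region, on a transgene that holds the whole mouse gene with its flanks. The Dp(16)1Yey mouse (n = 4) carries an extra copy of the chromosome 16 region that is syntenic to human chromosome 21, Dyrk1a included. Each line was compared with its own wild-type littermates (n = 3 for 189N3 and n = 4 for Dp(16)1Yey). The methods give the transgenic animals of both lines as heterozygotes crossed with C57BL6 mice for the neuronal cultures, and neither embryo sex nor litter was used here. Replicates are numbered from 0, as in the sample labels, and whether every library is 1 embryo is not said outright, so that the p-values measure the spread between these libraries.

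Microglia are the resident macrophages of the brain. They descend from yolk sac progenitors that enter the embryonic brain before neurogenesis is complete, they depend on signalling through the receptor Csf1r, and in the developing hippocampus they are known for clearing dying cells and for pruning synapses with the help of complement. A second population of macrophages lies at the borders of the brain, in the meninges and along vessels, and is told from microglia by a high level of the mannose receptor Mrc1. In whole tissue, fewer cells of a type and less RNA per cell cannot be told apart.

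All 9 genes were detected in all 14 libraries. Their level was low, with between 11 fragments (Trem2) and 451 fragments (Csf1r) per gene and library. To compare genes, normalized fragments were divided by the median length of the protein-coding transcripts of the gene in kilobases, which gives normalized fragments per kb, averaged over 14 libraries with their SD. On this scale the order ran from Tyrobp, the signalling adapter of Trem2, at 114 ± 45.9, over C1qb, the B chain of the complement component C1q, at 96.6 ± 26.0, to P2ry12, a purinergic receptor of microglia, at 77.9 ± 19.9. C1qc followed at 76.4 ± 25.7, the growth factor receptor gene Csf1r at 68.8 ± 13.2 and C1qa at 66.8 ± 12.4. The level of Cx3cr1, the fractalkine receptor gene, was 42.2 ± 10.4, that of Mrc1 was 26.3 ± 16.9, and that of the lipid receptor gene Trem2 was 21.3 ± 5.70 normalized fragments per kb. Neighbours in the middle of this order did not stand apart: P2ry12 was above C1qc in 8 of 14 libraries, C1qc above Csf1r in 9, Csf1r above C1qa in 8 and Mrc1 above Trem2 in 7. By contrast C1qa was above Cx3cr1 in 14 of 14 libraries, and Tyrobp above C1qb in 12. The order was not the same in each group. In the 189N3 littermates the mean of Mrc1 was 49.1 normalized fragments per kb, above the 44.0 of Cx3cr1, and in the Dp(16)1Yey littermates it was 13.1, below the 19.3 of Trem2. P2ry12, at 60.9 in the Dp(16)1Yey littermates, was there below C1qc (66.9) and Csf1r (71.1).

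The 3 C1q genes lie side by side on the minus strand of chromosome 4 in mm10 (GRCm38). C1qb spans chr4:136880126-136886200, C1qc spans chr4:136889801-136892936 and C1qa spans chr4:136895916-136898844. Cx3cr1 lies at chr9:120048683-120068296 on the minus strand and P2ry12 at chr3:59216271-59262985 on the minus strand. On the plus strand are Tyrobp (chr7:30413782-30417582), Trem2 (chr17:48346401-48352276) and Mrc1 (chr2:14229414-14332023). None of the 9 genes lies on chromosome 16, which holds the extra dosage of the Dp(16)1Yey mouse. Of these genes 6 had a RefSeq promoter entry (GRCm38.p6), and these were searched for the letters GAGGAA on either strand, the core box bound by PU.1, the factor that specifies macrophages and microglia. The box was present in 4 of the 6 windows, which run from 250 bases before to 50 after the start (C1qb, C1qc, Trem2 and Mrc1) and absent from those of Cx3cr1 and P2ry12, beside 28.3% of 32851 promoters of the same length. A match of letters is a description and not a binding site. The 250 bases before the start used by each RefSeq promoter entry, which for C1qc lies inside the gene span given above, are shown for these 4 genes 5′ to 3′ on the strand of the gene, with the box, or its reverse complement TTCCTC, in capitals:
C1qb, chr4:136886201-136886450, minus strand: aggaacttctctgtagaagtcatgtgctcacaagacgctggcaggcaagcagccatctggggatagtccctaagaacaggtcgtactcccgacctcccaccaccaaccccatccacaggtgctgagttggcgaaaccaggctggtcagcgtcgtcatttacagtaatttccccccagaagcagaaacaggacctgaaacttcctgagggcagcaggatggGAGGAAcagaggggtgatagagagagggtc
C1qc, chr4:136892915-136893164, minus strand: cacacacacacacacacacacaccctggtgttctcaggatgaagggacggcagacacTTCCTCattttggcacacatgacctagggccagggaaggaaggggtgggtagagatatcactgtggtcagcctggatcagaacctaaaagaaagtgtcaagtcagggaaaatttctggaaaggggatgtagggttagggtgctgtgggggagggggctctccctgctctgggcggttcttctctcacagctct
Trem2, chr17:48346151-48346400, plus strand: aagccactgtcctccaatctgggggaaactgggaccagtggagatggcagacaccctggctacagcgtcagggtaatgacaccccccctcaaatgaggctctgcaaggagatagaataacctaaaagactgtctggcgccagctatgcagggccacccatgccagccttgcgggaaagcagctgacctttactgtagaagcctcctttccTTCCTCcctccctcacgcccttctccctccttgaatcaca
Mrc1, chr2:14229164-14229413, plus strand: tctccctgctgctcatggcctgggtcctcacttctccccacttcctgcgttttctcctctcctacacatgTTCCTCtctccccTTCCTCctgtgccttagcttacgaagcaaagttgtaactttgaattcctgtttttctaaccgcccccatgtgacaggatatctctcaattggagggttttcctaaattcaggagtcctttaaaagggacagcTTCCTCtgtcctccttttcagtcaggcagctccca
The first base of the box, read along the gene, lay 30 bases before that start in C1qb, 193 in C1qc and 40 in Trem2. Mrc1 held 3 boxes, at 180, 167 and 35 bases before its start.

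Libraries held between 20809134 and 29098454 fragments. The summed level of 11 genes of hippocampal neurons ranged from 104033 to 191467 normalized fragments and that of 12 genes of radial glia from 44527 to 81636, against 739 to 1571 for the 9 microglia and macrophage genes. Dyrk1a, the gene added in 189N3, was at 4248, 3938 and 5877 normalized fragments in 189N3 replicates 0 to 2, above the 2448, 2977 and 2126 of the wild-type littermates. In Dp(16)1Yey replicates 0 to 3 it was at 4781, 2124, 3600.3 and 3044, so the library labelled Dp(16)1Yey replicate 1 lay below the 2397 to 3175 of its littermates. Over 64 genes of the triplicated region, the median log2 difference from the mean of the littermates was 0.68, 0.18, 0.62 and 0.42 in these 4 libraries, and the library labelled replicate 1 was kept under its label. The same median was -0.08, -0.09 and 0.32 in 189N3 replicates 0 to 2 against their own littermates. 189N3 replicate 2 thus lay above the library labelled Dp(16)1Yey replicate 1, and the cause was not tested. Among the Dp(16)1Yey littermates, replicates 0 and 1 and replicates 2 and 3 were nearly alike, with a squared difference under 3 times that of counting noise (1.65 for the first pair) against 8.95 to 110 times for the other pairs of 1 group. The summed level of 11 skin genes was 3567 normalized fragments in 189N3 wild-type replicate 2 and between 168 and 587 in the other 13 libraries, and that of 12 fibroblast and meninges genes was highest in 189N3 wild-type replicates 0 and 2 (10324 and 8441, against 2429 to 6187 in the other 12).

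Neither model showed a change of the microglia and macrophage genes that passed a test. In limma's moderated test on log2(value + 1), 0 of 9 genes had an adjusted p-value under 0.05 in 189N3 (background 0% of 35899 loci), 0 of 9 had an unadjusted p-value under 0.05 (background 1.87%) and in 0 of 9 did the groups not overlap (background 4.98%). The same counts in Dp(16)1Yey were 0 of 9 (background 0% of 36024 loci), 0 of 9 (background 3.53%) and 0 of 9 (background 2.45%). edgeR and DESeq2 on recovered fragments also called 0 of 9 at an adjusted p-value of 0.05 in both models. The added gene Dyrk1a did not pass limma's adjusted test in 189N3 either, although its groups did not overlap. Its log2 difference was 0.89 (SE 0.24), with an unadjusted p-value of 0.00219 in limma. A count of 0 in the adjusted test therefore cannot show that the 9 genes were unchanged. The median log2 difference over the 9 genes was -0.17 in 189N3, beside -0.04 for all loci, and 6 of 9 were lower (background 56.2%). In Dp(16)1Yey it was -0.11, beside 0.03 for all loci, and 6 of 9 were lower (background 45.1%). For each gene the libraries were permuted as well (exact, two-sided), where 3 against 3 cannot give less than 0.10 and 4 against 4 not less than 0.0286. These exact p-values ran from 0.20 to 1.00 in 189N3 and from 0.229 to 0.886 in Dp(16)1Yey. Without the library labelled Dp(16)1Yey replicate 1, 0 of 9 genes had an unadjusted p-value under 0.05 and the median log2 difference was -0.19.

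**Figure D1:**
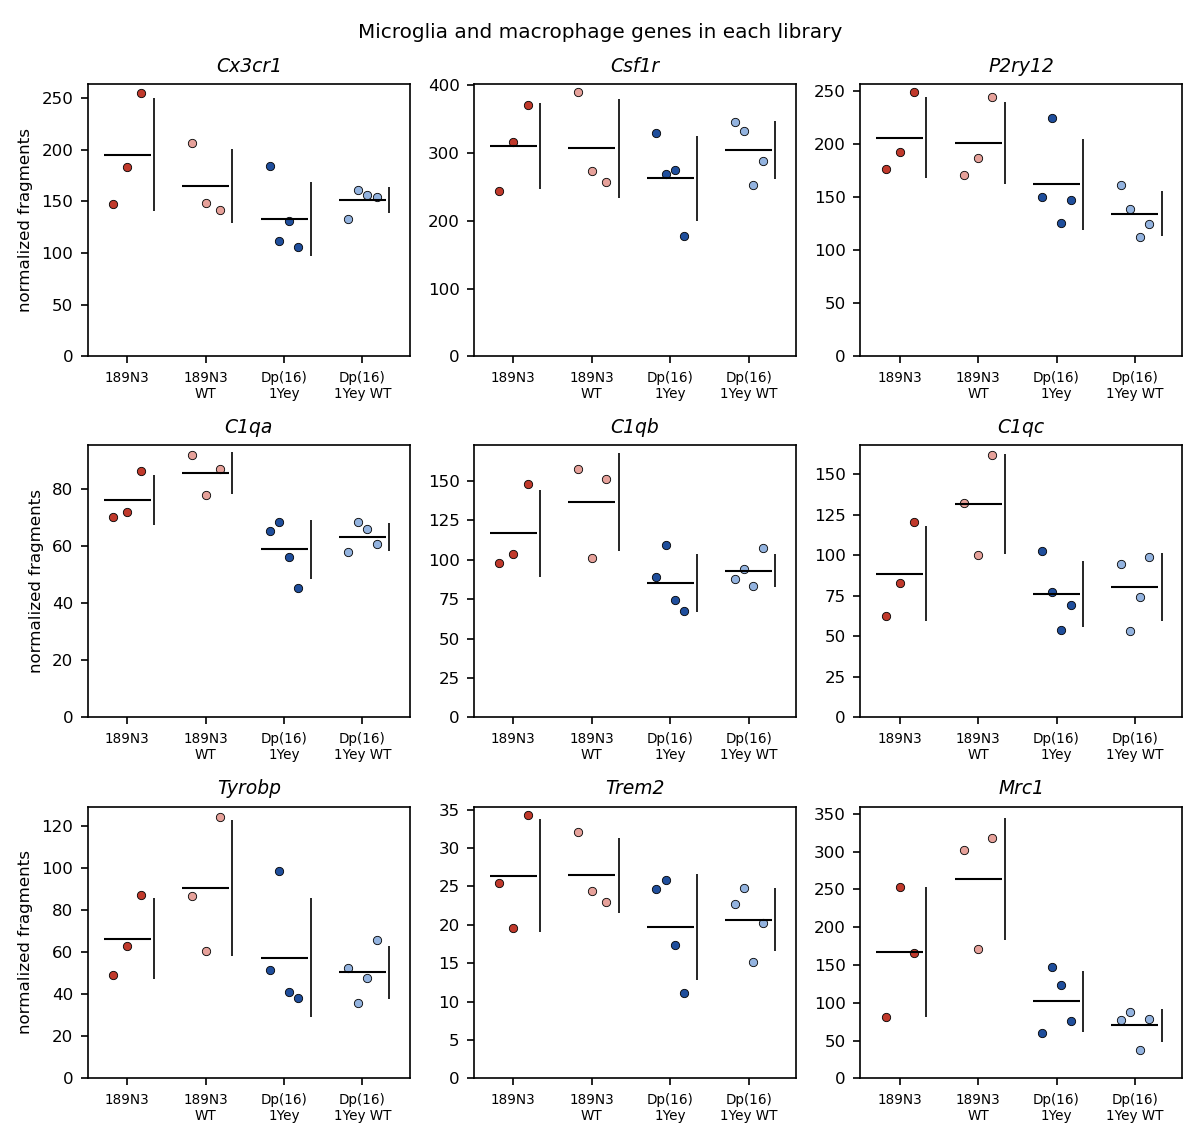
Each panel plots the normalized fragments (y axis) of 1 gene in the 14 libraries by group (x axis; WT, wild-type littermates), with replicates in order from left to right, the group mean as a horizontal line and ± 1 SD as a vertical line. The points of each model overlap those of its own littermates in all 9 panels, while for P2ry12, C1qa, C1qc and Mrc1 the Dp(16)1Yey littermates lie below all 189N3 littermates.

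Among the receptors, Cx3cr1 answers the neuronal chemokine Cx3cl1. It was at 147, 184 and 255 normalized fragments in 189N3 replicates 0 to 2 against 206, 148 and 141 in the littermates, and at 184, 112, 131 and 106 in Dp(16)1Yey replicates 0 to 3 against 133, 161, 157 and 155. In both lines 1 transgenic library (189N3 replicate 2 and Dp(16)1Yey replicate 0) was above every littermate and the others were among or below them. The log2 difference was 0.22 (SE 0.28) in 189N3 and -0.22 (SE 0.20) in Dp(16)1Yey, with adjusted p-values of 1.00 and 0.909 in limma.

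Csf1r (chr18:61105572-61131139, plus strand), the receptor on whose signal microglia depend, had the most fragments of the 9 genes. It was at 244, 317 and 372 normalized fragments in 189N3 against 391, 273 and 257 in the littermates, and the 2 ranges overlapped. In Dp(16)1Yey it was at 329, 269, 276 and 178 against 346, 333, 253 and 288, with replicate 3 below every littermate. The log2 difference was 0.02 (SE 0.26) and -0.24 (SE 0.21), with adjusted p-values of 1.00 and 0.909 in limma.

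P2ry12, which senses nucleotides released from cells, was at 176, 193 and 249 normalized fragments in 189N3 against 171, 187 and 244 in the littermates. These 2 sets of values were nearly the same, and the log2 difference was 0.04 (SE 0.26). In Dp(16)1Yey it was at 150.3, 224, 126 and 147 against 162, 139, 112 and 124, a log2 difference of 0.25 (SE 0.21) that fell to 0.08 without the library labelled replicate 1, which held the highest value.

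The ligands of these receptors did not pass the adjusted test either. Csf1, the first ligand of Csf1r, was at 118, 114 and 135 normalized fragments in 189N3 against 146, 86.6 and 111, and at 170.1, 96.4, 118 and 97.6 in Dp(16)1Yey against 148, 161, 140.3 and 139. Its second ligand Il34, made by neurons, was at 16.8, 5.88, 10.2 and 10.1 in Dp(16)1Yey, each below the 17.5, 17.8, 19.4 and 24.3 of the littermates. For Il34 the log2 difference was -0.89 (SE 0.33), with an exact two-sided permutation p of 0.0286, the smallest that 4 against 4 libraries can give, and an adjusted p-value of 0.909 in limma. That permutation treats the littermates as 4 separate libraries, although replicates 0 and 1 and replicates 2 and 3 were nearly alike, so its p-value may be too small. Il34 had between 5 and 24 fragments a library in this line. In 189N3 Il34 was at 21.2, 17.1 and 28.0 against 9.53, 17.1 and 26.6. Cx3cl1, the ligand of Cx3cr1, spread widely in every group, from 74.5 to 244 in Dp(16)1Yey against 122 to 453 in the littermates, and from 117 to 403 in 189N3 against 100.3 to 247. Of the 11 ligands and signalling partners tested, 0 passed the adjusted test in either model, and 0 in 189N3 and 1 in Dp(16)1Yey (Il34) had an unadjusted p-value under 0.05.

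The C1q genes encode the 3 chains of the molecule that starts the classical complement pathway, and in brain they are made chiefly by microglia. C1qa was at 70.2, 71.8 and 86.1 normalized fragments in 189N3 against 91.8, 77.6 and 87.0, and C1qb at 98.1, 104 and 148 against 158, 101 and 151. Replicates 0 and 1 were below every littermate for C1qa and replicate 0 was for C1qb, while replicate 2 was among the littermates for both genes. The third chain, C1qc, was at 62.6, 83.2 and 120.4 against 133, 100.2 and 162, with 2 transgenic libraries below every littermate. The log2 difference in 189N3 was -0.17 (SE 0.25) for C1qa, -0.22 (SE 0.28) for C1qb and -0.59 (SE 0.30) for C1qc, whose unadjusted p-value in limma was 0.0674 and whose adjusted p-value was 1.00. Without 189N3 replicate 2 the unadjusted p-value of C1qc in limma was 0.00657 (adjusted 0.982), and it was 0.0413 without wild-type replicate 1. It rose to 0.295 and 0.0898 without 189N3 replicates 0 and 1, and to 0.136 and 0.247 without wild-type replicates 0 and 2.

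The C1q genes of Dp(16)1Yey spread more than in the littermates, or as much, around a similar mean. C1qa was at 65.3, 68.2, 56.1 and 45.3 normalized fragments against 57.7, 68.3, 65.8 and 60.7, and C1qb at 89.0, 109, 74.5 and 67.4 against 87.6, 94.0, 83.1 and 107. C1qc was at 103, 77.6, 54.1 and 69.4 against 94.8, 53.4, 74.5 and 99.1. Replicates 2 and 3 of Dp(16)1Yey were both below every littermate for C1qa and C1qb, but not for C1qc. The log2 differences were -0.12 (SE 0.20), -0.14 (SE 0.20) and -0.08 (SE 0.26). Of the other complement genes and regulators tested, 0 of 8 in 189N3 and 0 of 7 in Dp(16)1Yey passed the adjusted test, and Csmd1, a complement inhibitor of neurons, had an unadjusted p-value in limma of 0.0262 in Dp(16)1Yey (log2 difference -0.69, SE 0.27).

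Tyrobp (DAP12) carries the signal of Trem2, a receptor for lipids and apolipoproteins, into the cell. Tyrobp was at 49.1, 62.8 and 87.2 normalized fragments in 189N3 against 86.6, 60.5 and 124, and at 51.4, 98.7, 40.8 and 38.2 in Dp(16)1Yey against 52.5, 35.6, 47.5 and 65.7. The highest Dp(16)1Yey value was that of the library labelled replicate 1, and without it the log2 difference turned from 0.11 (SE 0.31) to -0.19. In 189N3 the log2 difference of Tyrobp was -0.42 (SE 0.32). Trem2, which had the fewest fragments of the 9 (11 to 37 a library), was at 25.4, 19.6 and 34.2 in 189N3 against 32.1, 24.4 and 23.0, and at 24.7, 25.9, 17.3 and 11.1 in Dp(16)1Yey against 22.7, 24.7, 15.1 and 20.2. Its log2 differences were -0.02 (SE 0.33) and -0.11 (SE 0.32), and that of 189N3 was 0.0025, 0.058 and 0.013 with median-ratio size factors, quantile normalization and DESeq2.

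Mrc1, the mannose receptor of border macrophages, varied most. It was at 81.2, 253 and 166 normalized fragments in 189N3 against 302, 171 and 318 in the littermates, and at 60.3, 147, 123 and 76.5 in Dp(16)1Yey against 77.3, 87.1, 37.8 and 78.9. In 189N3, 2 of 3 libraries were below every littermate, and in Dp(16)1Yey, 2 of 4 were above every littermate. The log2 difference was -0.75 (SE 0.37) in 189N3, with an unadjusted p-value of 0.0594 in limma, and 0.51 (SE 0.33) in Dp(16)1Yey, with one of 0.155. Without 189N3 replicate 1 the log2 difference of Mrc1 in 189N3 was -1.12, and without replicate 0 it was -0.31. Of the border macrophage genes listed with it (12 named), 6 were tested in 189N3 and 6 were lower (background 56.2%). An unadjusted p-value under 0.05 was found for 2 (Pf4 and F13a1, background 1.87%) and an adjusted one for 0. Another 6 were below the filter on the mean and were not tested. The platelet factor gene Pf4, a marker of border macrophages, averaged 8.06 ± 5.48 normalized fragments in 189N3 (SD, n = 3) and 29.2 ± 15.5 in the littermates (SD, n = 3). Of the same list 4 were tested in Dp(16)1Yey, of which 3 were higher (background 54.9%), and 0 had an unadjusted p-value under 0.05 (background 3.53%).

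The fibroblast and meninges genes mostly went in the same direction as Mrc1 in each model. In 189N3, 10 of 12 were lower (background 56.2%) and 5 had an unadjusted p-value under 0.05 (background 1.87%). There 9 of 9 erythroid genes and 9 of 9 skin genes were also lower, 9 and 8 of them with such a p-value. In Dp(16)1Yey, 8 of 12 fibroblast and meninges genes were higher (background 54.9%), 3 of them with an unadjusted p-value under 0.05 (background 3.53%). Of the erythroid genes 9 of 9 were higher there, 2 of them with such a p-value. The library labelled Dp(16)1Yey replicate 1 had the highest sum of both lists in its group. Its fibroblast and meninges sum was 6187 normalized fragments, against 2686 to 3369 in the other Dp(16)1Yey libraries. In the littermates that sum was 2429 to 3169. The erythroid sum of that library was 56122, against 6173 to 22990 in the other Dp(16)1Yey libraries and 4747 to 17454 in the littermates. None of the genes of these lists passed the adjusted test in either model, and the part of such cells in the values of Mrc1 was not tested. Markers of neutrophils and monocytes were near the floor, with a summed level of 11.9 to 72.5 normalized fragments over 12 genes, and Elane was at 0 in 13 of 14 libraries. Of 11 lymphocyte and mast cell genes 2 were tested in 189N3 and 1 in Dp(16)1Yey, and the T cell gene Cd3g and the B cell gene Ms4a1 were at 0 in 13 and 12 of 14 libraries.

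Whether the 2 models differed was tested as the difference of the genotype effects in 1 fit of the 4 groups. Again 0 of 9 genes passed the adjusted test (background 0% of 36045 loci), and 1 of 9, Mrc1, had an unadjusted p-value under 0.05 (background 2.66%). The difference for Mrc1 was 1.26 on the log2 scale (SE 0.57) towards a higher value in Dp(16)1Yey, with an unadjusted p-value of 0.0405 and an adjusted p-value of 0.922 in limma. Cx3cr1 stood at the other end with -0.44 (SE 0.33). With the nearly alike littermate libraries averaged, 0 of 9 had an unadjusted p-value under 0.05.

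**Figure D2:**
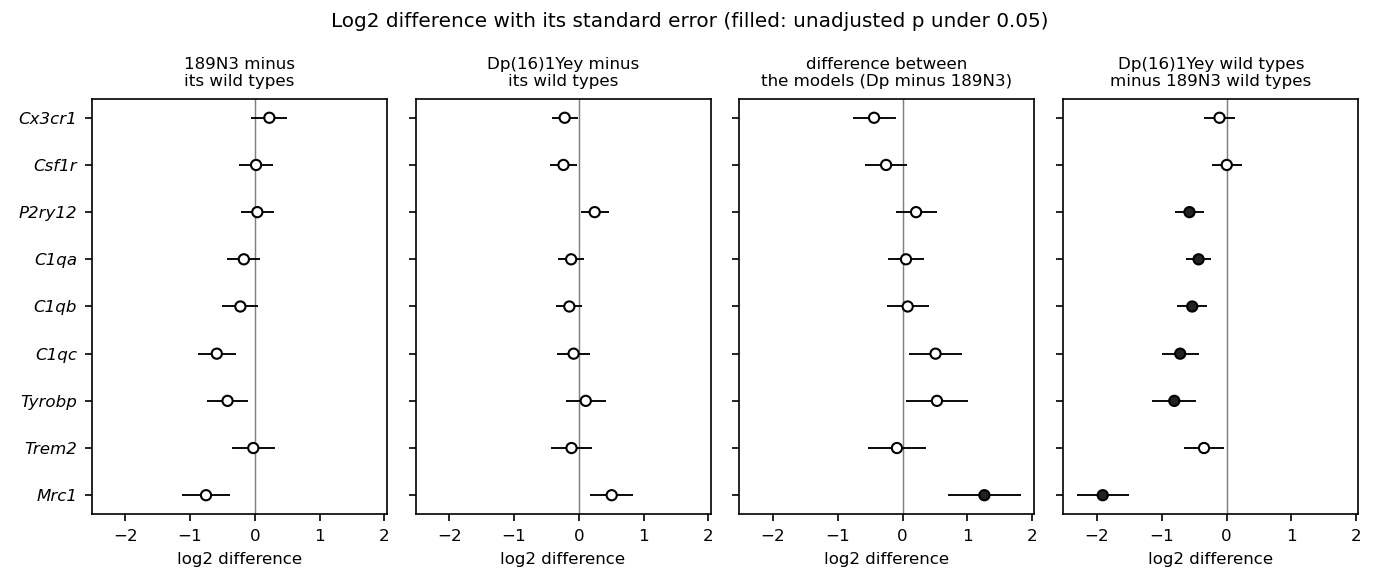
Points give the log2 difference (x axis) of each gene (y axis) with its standard error as a bar in 4 comparisons, from 189N3 (3 against 3 libraries), Dp(16)1Yey (4 against 4), the difference between the models (14 libraries) and the Dp(16)1Yey against the 189N3 wild-type littermates (4 against 3), and filled points have an unadjusted p-value under 0.05 in limma. In the panels of the 2 models the points are unfilled, whereas 6 of 9 are filled and lie below 0 in the comparison of wild types.

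The wild-type littermates of the 2 lines were then compared with each other, to see how far these genes vary between wild-type embryos of separate lines. Of the 9 genes 8 were lower in the Dp(16)1Yey littermates (background 43.4%), with a median log2 difference of -0.53 beside 0.07 for all loci. An unadjusted p-value under 0.05 was found for 6 of 9 (background 17.5% in either direction). All 6 were lower (background 7.07% lower), and in 4 of 9 (P2ry12, C1qa, C1qc and Mrc1) the groups did not overlap (background 25.4%). The adjusted test called 0 of 9 (background 0.105%). Over all loci, 3751 were higher and 2547 lower at an unadjusted p-value of 0.05, and with median-ratio size factors 2867 were higher and 3190 lower. Line, litter and embryonic age cannot be told apart in this comparison.

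Mrc1 had the largest difference of the 9, with 70.3 ± 22.1 normalized fragments (SD, n = 4) in the Dp(16)1Yey littermates against 264 ± 80.4 (SD, n = 3) in those of 189N3. It was 3.76-fold lower by the ratio of means, a log2 difference of -1.91 (SE 0.40, adjusted p-value 0.0740 in limma). This adjusted p-value was 0.0478 after quantile normalization, 0.0482 without 189N3 replicate 2, 0.000388 in DESeq2, 0.0606 in edgeR and 0.571 with nearly alike libraries averaged. Next came Tyrobp with 50.3 ± 12.5 (SD, n = 4) against the 90.5 ± 32.2 of the 189N3 littermates (SD, n = 3), a log2 difference of -0.81 (SE 0.34), and C1qc with 80.5 ± 21.0 (SD, n = 4) against their 132 ± 30.9 (SD, n = 3), a log2 difference of -0.72 (SE 0.29). P2ry12 differed by -0.57 (SE 0.22), C1qb by -0.53 (SE 0.23) and C1qa by -0.43 (SE 0.19) on the log2 scale. Their adjusted p-values in limma lay between 0.209 (P2ry12) and 0.265 (C1qa).

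For Cx3cr1 and Csf1r the difference was close to 0. The log2 difference of Csf1r was 0.0033 (SE 0.23), or -0.11 to -0.057 under the other scalings and count tests, between means of 305 ± 42.7 (SD, n = 4) and 307 ± 72.8 (SD, n = 3), and that of Cx3cr1 was -0.11 (SE 0.23). Trem2 was in between with -0.35 (SE 0.31). The difference between these genes and the 6 lower ones was not itself tested. Leaving out 189N3 wild-type replicate 2, the library with the high skin genes, left 1 of 9 genes (Mrc1) with an unadjusted p-value under 0.05, and leaving out 189N3 wild-type replicate 0 left 2 (Mrc1 and P2ry12). Without Dp(16)1Yey wild-type replicate 1 there were 3, without its replicate 2 there were 2, and with the nearly alike libraries averaged there was 1 (Mrc1), while the median log2 difference stayed at -0.52 in the last case. Without 189N3 wild-type replicate 2 the log2 difference of Mrc1 was -1.75.

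The wider lists showed the same comparison at more genes. Of 27 other microglia genes tested 21 were lower in the Dp(16)1Yey littermates (background 43.4%). An unadjusted p-value under 0.05 was found for 9, 8 of them lower and 1, the transcription factor gene Sall1, higher. Sall1 is also made by other cells of the embryonic brain, and it averaged 444 ± 75.5 normalized fragments there (SD, n = 4) and 281 ± 19.8 in the 189N3 littermates (SD, n = 3). The lysosomal protease gene Ctss was at 122 ± 8.51 (SD, n = 4) against 185 ± 10.5 (SD, n = 3). All 5 border macrophage genes tested were lower, 4 of them with an unadjusted p-value under 0.05 (background 7.07% lower), and their median log2 difference was -1.79. Lyve1, the hyaluronan receptor of lymphatic vessels and border macrophages, was at 6.86 ± 2.59 (SD, n = 4) against 45.2 ± 18.9 (SD, n = 3).

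Inflammatory and activation genes included the 2 genes of these immune lists that passed the adjusted test. Igf1, a growth factor of microglia and of other cells, was at 159 ± 5.86 normalized fragments (SD, n = 4) in the Dp(16)1Yey littermates against 470.3 ± 42.2 (SD, n = 3), which is -1.55 on the log2 scale (SE 0.19, adjusted p-value 0.00141 in limma). Spp1 (osteopontin) averaged 66.2 ± 7.85 there (SD, n = 4) and 223 ± 45.7 in those of 189N3 (SD, n = 3), or -1.72 on the log2 scale (SE 0.25), with an adjusted p-value of 0.00740. Both kept non-overlapping groups. Over all loci the main fit called 21 lower, against 2 with nearly alike libraries averaged and 2 without 189N3 wild-type replicate 2. Of 10 genes tested in this list 8 were lower, and the cytokine genes Tnf and Il1b had means of 0.846 and 1.73 normalized fragments over 14 libraries and did not enter the test. In the 2 models 0 of 11 (189N3) and 0 of 10 (Dp(16)1Yey) genes of this list passed the adjusted test.

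Markers of other tissue also differed between these wild types. All 12 fibroblast and meninges genes were lower in the Dp(16)1Yey littermates, 8 with an unadjusted p-value under 0.05 and 1, the collagen gene Col1a2, with an adjusted one (log2 difference -3.46, SE 0.61, adjusted p-value 0.0387 in limma). With nearly alike libraries averaged 2 lower loci were called in all, so at least 1 of Igf1, Spp1 and Col1a2 lost its call. The same held without 189N3 wild-type replicate 2. Their summed level was 2429 to 3169 normalized fragments in the Dp(16)1Yey littermates and 4984 to 10324 in those of 189N3. In the same comparison 9 of 9 skin genes and 7 of 9 erythroid genes were lower, and the brain endothelial genes were split, with 4 of 12 higher and 8 lower. Of the radial glia genes 9 of 12 were higher (median log2 difference 0.28), 3 of them with an unadjusted p-value under 0.05, and 7 of 11 hippocampal neuron genes were higher (median 0.27), 1 of them with such a p-value. The summed level of the 12 border macrophage genes was 239 to 380.2 against 464 to 915, without overlap, and that of the 29 other microglia genes was 3252 to 3554 against 3646 to 3813, also without overlap. In CPM, which scales fragments to the total of the library in place of the size factor, the other microglia sums overlapped (134 to 156 against 149.9 to 161), while those of the 9 genes (34.8 to 45.3 against 47.0 to 66.3) and of the border macrophage genes (9.83 to 16.7 against 19.1 to 38.6) did not. The part of tissue makeup in the lower level of the 9 genes was not tested.

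**Figure D3:**
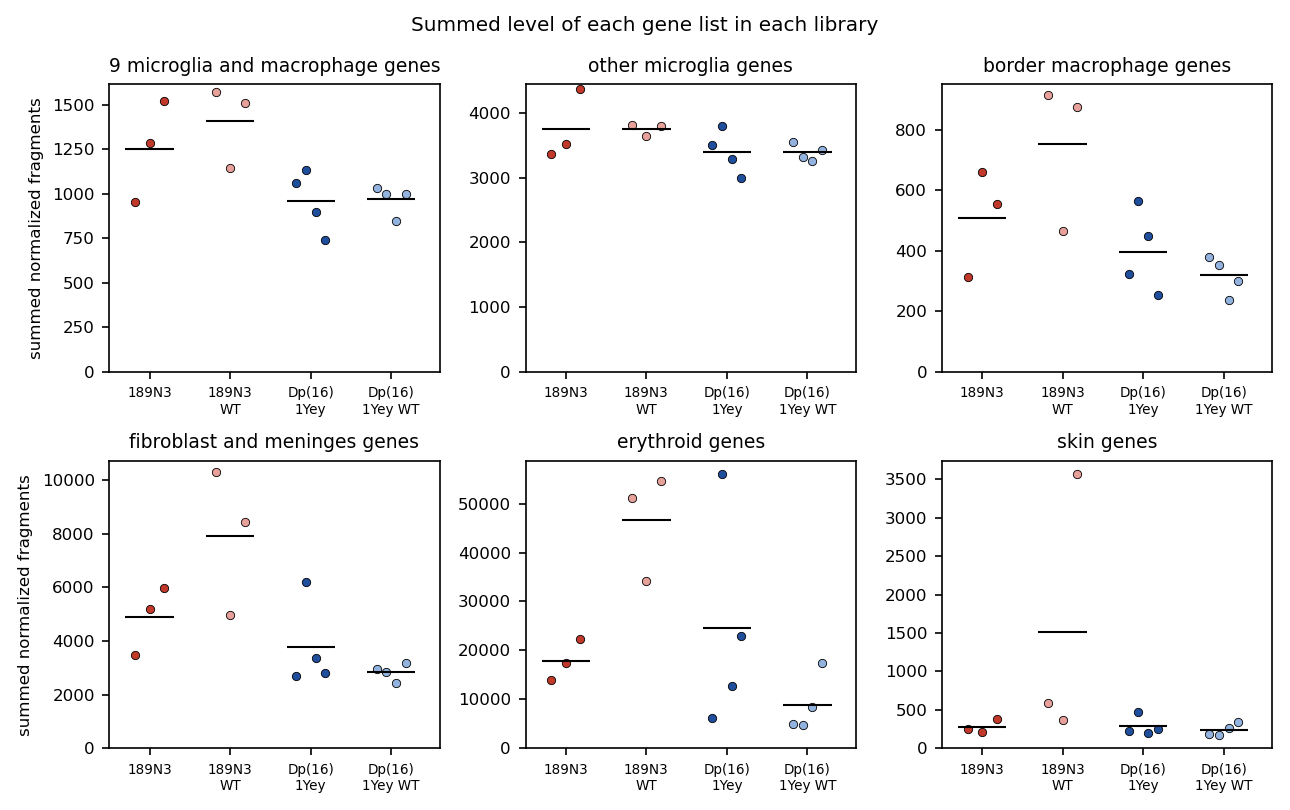
Each panel plots the summed normalized fragments (y axis) of 1 gene list in the 14 libraries by group (x axis; WT, wild-type littermates), with the group mean as a line. In every panel, those of erythroid and skin genes included, the sums are lower in all 4 Dp(16)1Yey littermates than in all 3 of 189N3. For skin genes 1 library, 189N3 wild-type replicate 2, stands at 3567.

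Within groups the 9 genes tended to be high or low together. After the mean of each group was removed, the Pearson correlation of log2(value + 1) over 14 libraries was positive in 35 of 36 pairs of genes, with a median of 0.47. These points share their library and its depth, and the values are a description. The closest pair was C1qb and Tyrobp (r = 0.84), followed by Csf1r and Trem2 (r = 0.80), and the one negative pair was Cx3cr1 and P2ry12 (r = -0.11). Mrc1 was the least alike of the 9, with a median r of 0.32 to the others, and C1qb the most, with 0.61. The mean of the 9 genes was 0.33 above its group mean on the log2 scale in 189N3 replicate 2 and in the library labelled Dp(16)1Yey replicate 1, and 0.33 and 0.35 below it in 189N3 replicate 0 and Dp(16)1Yey replicate 3. With a library left out in turn, the median correlation lay between 0.39 and 0.53.

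**Figure D4:**
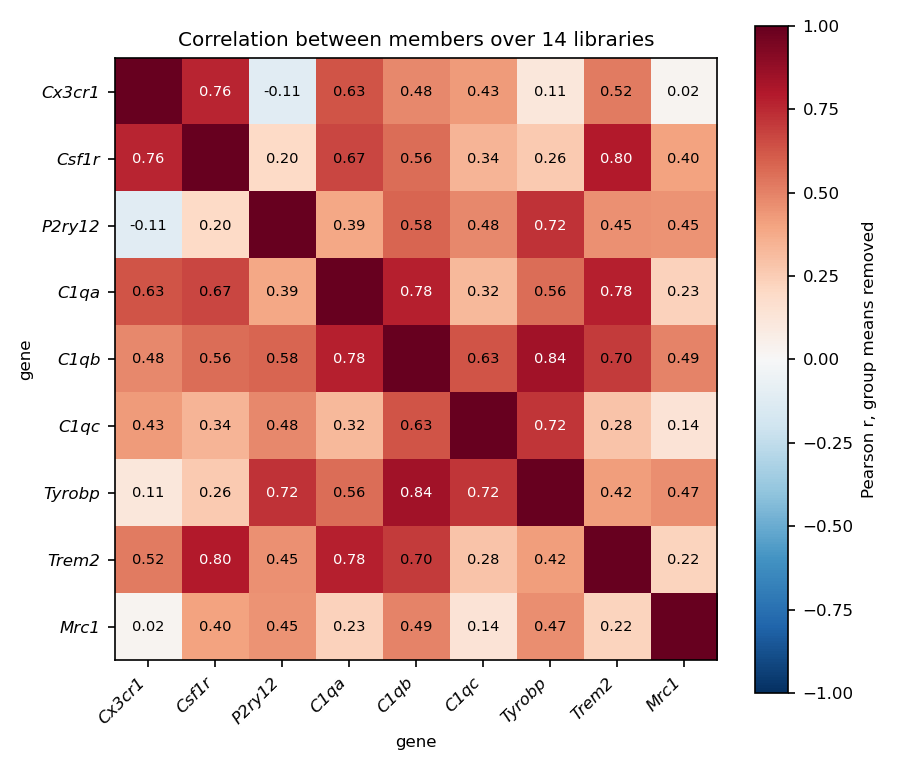
The heat map gives the Pearson correlation (colour and number) between each pair of the 9 genes (both axes), from log2(value + 1) in 14 libraries with group means removed. All but 1 of the 36 pairs are positive, and the row of Mrc1 has the lowest median, 0.32.

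Each gene was also set beside the summed lists, again with group means removed over 14 libraries, and differences between these correlations were not tested. With the other microglia sum r was 0.82 for C1qb, 0.78 for Trem2, 0.75 for Tyrobp, 0.74 for C1qa, 0.70 for P2ry12, 0.68 for Csf1r, 0.63 for C1qc, 0.50 for Cx3cr1 and 0.39 for Mrc1. With the border macrophage sum, which does not hold Mrc1, r was 0.91 for Mrc1 and between 0.22 (Cx3cr1) and 0.66 (C1qb) for the others. With the fibroblast and meninges sum it was 0.83 for C1qb and 0.79 for both Tyrobp and Mrc1, and between 0.16 (Cx3cr1) and 0.59 (P2ry12) for the others. With the brain endothelial sum it was 0.89 for Cx3cr1 and 0.79 for Csf1r, and between -0.13 (P2ry12) and 0.53 (C1qa) for the others. Csf1r and Cx3cr1 were also the highest with the inflammatory and activation sum (0.90 and 0.80) and with the lymphocyte and mast cell sum (0.85 and 0.72). The lymphocyte and mast cell sum is nearly all Kit, with a mean of 979 normalized fragments against 8.04 for Cpa3, the next highest. In the inflammatory and activation sum the largest means were those of Lpl (883), Igf1 (289) and Nfkbia (214). These r values therefore describe mainly those genes.

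Among 12427 named loci with a mean of at least 50, the 10 whose pattern was most like the mean of the 9 genes were Fn1 (r = 0.95), Fars2 (0.92), Ctsh (0.91), Tnfaip8 (0.88), Fcgrt (0.88), Notch3 (0.88), Anxa2 (0.87), Col16a1 (0.87), Ctsc (0.87) and Fgfr2 (0.86), all over 14 libraries with group means removed. Fn1 encodes the matrix protein fibronectin and was in the fibroblast and meninges list, and Ctsh and Ctsc encode lysosomal cathepsins. The median r of all these loci was 0.28, against 0.54 for 16 other microglia genes, 0.79 for 3 border macrophage genes and 0.15 for 11 hippocampal neuron genes. For 4 inflammatory and activation genes it was 0.62, for 8 fibroblast and meninges genes 0.48 and for 12 radial glia genes 0.40. The median was 0.41 for 8 ligands and partners, 0.31 for 10 brain endothelial genes and 0.15 for 5 complement genes. Differences between these medians were not tested.

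The isoform table divides the fragments of a locus among its assembled transcripts. Cx3cr1, C1qa, C1qc and Mrc1 had 1 transcript each. Of Csf1r, 97.6% of the fragments over all libraries fell to 1 of 4 transcripts, of Tyrobp 98.5% to 1 of 2, and of C1qb 73.7% to 1 of 2. For P2ry12 the transcript with the largest share held 43.5% over all libraries but between 0.00193% and 91.1% in single ones, and for Trem2 the largest share was 39.4%, with 0.00287% to 100.0% in single libraries. At these levels the division between transcripts of P2ry12 and Trem2 was not stable between libraries, and no isoform was compared between groups.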

How the data were processed

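The authors prepared stranded libraries of total RNA (the labels list polyA RNA), sequenced them in pairs of 100 bases and processed them with Bowtie, TopHat and the Cufflinks suite on mm10, with UCSC known genes and Gencode M4, correcting for fragment bias and for reads with several alignments. Tool versions were not given in the sources used here. The deposited table of genes holds a signal, namely the fragments of each locus assembled by Cufflinks scaled by a size factor of the library, and 1 fragment is worth 0.816 to 1.21 in it. The deposited isoform signal holds estimated shares of these fragments. All nonzero gene values were whole multiples of their library's step (100%, tolerance 0.01), so fragments were recovered. Multiply mapped reads were divided by estimation, and a gene's value depends on the assembled locus.

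Locus identifiers of the gene table and of the map of transcripts to names differ, and transcript numbers are shifted by up to 11 over stretches. Each locus was matched to the map locus whose isoforms sum to its values in 14 libraries, which matched 51719 of 59796 loci and named 20289 (codes = and j). Coordinates and promoters are those of RefSeq (GRCm38.p6) and transcript lengths those of GENCODE vM21 (basic set, GRCm38, the assembly of mm10).

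Values were transformed to log2(value + 1), which understates changes of low genes, over loci with a mean of at least 10. Each model was compared with its littermates in limma 3.58.1 (R 4.3.3, trend, no covariate, Benjamini-Hochberg at 0.05). The difference between models and that between wild types came from 1 fit of 4 groups. As the table held scaled values, edgeR 4.0.16 and DESeq2 1.42.0 were run on recovered fragments as alternatives only. The others changed the pseudocount to 0.1 or 10, dropped the filter or raised it to a mean of 100, or used quantile normalization, size factors by median ratio, a replicate block, 1 fit of all groups, each library left out and nearly alike libraries averaged (those with a noise ratio under 3, a value chosen after the ratios were seen). Permutation tests used Python 3.11.15 and SciPy 1.17.1. The fits were tested on simulated data.

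The 9 genes and all other lists were chosen with earlier results of these data known. Named besides them were Csf1, Il34 and Cx3cl1, of each other list the genes with an adjusted p-value under 0.05 and the 2 with the smallest p-values in each model, and the 10 loci most alike. For 2 of these genes the values are not reported here. Genes named outside this rule (Sall1, Ctss, Lyve1, Tnf, Il1b, Elane, Cd3g and Ms4a1 among them) were chosen after their values were seen. The lists held other microglia, border macrophage, ligand and partner, complement, inflammatory and activation, neutrophil and monocyte, lymphocyte and mast cell, erythroid, brain endothelial, fibroblast and meninges, skin, hippocampal neuron and radial glia genes.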

Additional observations from a re-analysis of the deposited data

How the results depend on the processing

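The count of the 9 genes with an adjusted p-value under 0.05 was 0 in both models and in their difference under all alternatives run. For the wild types it rose from 0 to 1 (Mrc1) with quantile normalization, with DESeq2 and without 189N3 replicate 2, so that it ranged from 0 to 1 with a library left out. The count of all loci called in 189N3 moved from 0 to 3 with median-ratio size factors, 15 with DESeq2 and 0 to 28 (28 without wild-type replicate 1) with a library left out, and in Dp(16)1Yey from 0 to 8 with DESeq2 and 0 to 3 (3 without replicate 1) with a library left out. For the difference between the models it was 0 to 1 with a library left out. For the wild types it moved from 38 to 18 with a mean of at least 100, 112 with quantile normalization, 727 with DESeq2, 13 with nearly alike libraries averaged and 15 to 318 (318 without 189N3 replicate 2) with a library left out. The cause was not tested.

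Of the 9 genes, the number with an unadjusted p-value under 0.05 went from 0 to between 0 and 2 in 189N3 (C1qc, Mrc1 or both, without replicates 1 or 2 or wild-type replicate 1) and between 0 and 1 in Dp(16)1Yey (Mrc1, without replicate 0) with a library left out, and for the difference between the models from 1 to 0 with nearly alike libraries averaged and to between 0 and 1 with a library left out. For the wild types it went from 6 to 3 with a mean of at least 100, which fewer genes pass, to 1 with nearly alike libraries averaged and to between 1 and 6 with a library left out. Log2 differences near 0 changed sign: Trem2 in 189N3 was 0.0025 with median-ratio size factors, 0.058 with quantile normalization and 0.013 with DESeq2, C1qa in the difference between the models was -0.0056 with quantile normalization, and Csf1r between wild types was -0.057, -0.11, -0.062 and -0.076 with median-ratio size factors, quantile normalization, edgeR and DESeq2. With a library left out, the ranges that crossed 0 were -0.12 to 0.21 for Csf1r, -0.11 to 0.19 for P2ry12 and -0.22 to 0.17 for Trem2 in 189N3, -0.26 to 0.070 for C1qc, -0.26 to 0.13 for Trem2 and -0.19 to 0.26 for Tyrobp in Dp(16)1Yey, -0.024 to 0.17 for C1qa, -0.049 to 0.28 for C1qb and -0.28 to 0.15 for Trem2 in the difference between the models, and -0.11 to 0.19 for Csf1r and -0.21 to 0.061 for Cx3cr1 between wild types.

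Same-numbered libraries did not deviate together (correlations of -0.44 to -0.03). These correlations over all loci cannot tell whether such libraries shared a litter or a batch, as cell content also moves the deviations. With the replicate number as a block, 72 loci had an adjusted p-value under 0.05 in 189N3, 0 in Dp(16)1Yey and 22 between wild types. Of the 9 genes, 1 in 189N3, 0 in the difference between the models and 2 between wild types had an unadjusted p-value under 0.05. Trem2 had the fewest fragments (11 to 37 a library), and its SE in 189N3 was 0.33, beside 0.32 for Tyrobp and 0.37 for Mrc1, so that fragment number alone did not order the precision.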

Other observations

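Genes of the other lists with the smallest p-values in each model are given here as log2 differences from the littermates, and 0 of them passed the adjusted test of limma in either model. Among other microglia genes these were the integrin gene Itgb2 with 0.63 (SE 0.41) and the lysosomal gene Cd68 with -0.50 (SE 0.36) in 189N3, and Ctss with 0.32 (SE 0.19) and the integrin gene Itgam with -0.36 (SE 0.23) in Dp(16)1Yey. Of these genes 9 of 27 were higher in 189N3 and 16 of 26 in Dp(16)1Yey, with 0 at an unadjusted p-value under 0.05 in either. Of the border macrophage list, Pf4 and F13a1, a coagulation factor gene, had -1.84 (SE 0.51) and -1.09 (SE 0.40) in 189N3, and the endocytic genes Lyve1 and Dab2 0.78 (SE 0.48) and 0.34 (SE 0.27) in Dp(16)1Yey.

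Apoe, a ligand of Trem2, had -0.27 (SE 0.25) in 189N3, and Cx3cl1 had 0.42 (SE 0.42) in 189N3 and -1.10 (SE 0.51) in Dp(16)1Yey. The complement regulator gene Cd46 had 0.22 (SE 0.35) in 189N3, and Cr1l had 0.22 (SE 0.15) in Dp(16)1Yey. Among activation genes Lgals3 (galectin 3) had -0.79 (SE 0.41) and Lpl (lipoprotein lipase) 0.37 (SE 0.25) in 189N3, while Spp1 had -0.51 (SE 0.22) and Cst7 0.49 (SE 0.33) in Dp(16)1Yey.

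In the lists of other cells, the hemoglobin genes Hbb-bt and Hbb-bs, near-identical copies that may share reads, had -1.53 (SE 0.24) and -1.35 (SE 0.24) in 189N3, and the red cell anion exchanger gene Slc4a1 1.43 (SE 0.65) in Dp(16)1Yey. The collagen genes Col1a1 and Col1a2 had -1.54 (SE 0.38) and -1.44 (SE 0.36) in 189N3, and Col1a2 and Igf2 1.39 (SE 0.60) and 0.75 (SE 0.29) in Dp(16)1Yey. The keratin genes Krt15 and Krt6a had -2.81 (SE 0.52) and -2.61 (SE 0.56) in 189N3, and Lor and Krt15 -1.14 (SE 0.66) and 1.32 (SE 1.01) in Dp(16)1Yey, where 3 of 4 skin genes tested were higher. The endothelial receptor genes Flt1 and Kdr had 0.60 (SE 0.28) and 0.35 (SE 0.27) in 189N3, and -0.71 (SE 0.35) and -0.56 (SE 0.30) in Dp(16)1Yey. Of 12 brain endothelial genes 8 were higher in 189N3 and 3 in Dp(16)1Yey. The mast cell gene Cpa3 and the receptor gene Kit had -1.74 (SE 0.43) and 0.25 (SE 0.24) in 189N3, Kit -0.20 (SE 0.16) in Dp(16)1Yey, and the neutrophil gene S100a9 -0.62 (SE 0.39) in 189N3.

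The neuronal genes Tbr1 and Map2 had 0.39 (SE 0.30) and 0.29 (SE 0.22) in 189N3, and Neurod6 and Prox1 0.60 (SE 0.19) and -0.89 (SE 0.42) in Dp(16)1Yey. Of 11 hippocampal neuron genes 9 were higher in 189N3 and 6 in Dp(16)1Yey. The progenitor gene Hes5 had -0.40 (SE 0.30) in 189N3 and -0.37 (SE 0.25) in Dp(16)1Yey, Top2a -0.25 (SE 0.22) in 189N3 and Mki67 0.46 (SE 0.32) in Dp(16)1Yey. Of 12 radial glia genes 2 were higher in 189N3 and 6 in Dp(16)1Yey. In the comparison of wild types, the groups of 5 of 7 complement genes and 14 of 27 other microglia genes did not overlap, beside 25.4% of all loci.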
